A study of Mus musculus with 4 samples.

Results

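The 10 genes described here encode receptors and secreted proteins of tissue-resident macrophages and of the scavenger system. They are Lyve1, Stab1, Mrc1, Folr2, Cd163, Marco, Msr1, Cd5l, Fcna and F13a1. They were taken by name from a feature list of 31053 genes. Their unique molecular identifiers (UMIs) were counted in 4 droplet libraries, over all 41533 cells that passed the cell filter and within 31947 C1q-positive cells. A cell was C1q-positive when C1qa, C1qb and C1qc together gave at least 30 UMIs per 10000. None of the 10 genes entered that gate.

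The cells came from hearts of CSF1R-EGFP+ mice aged 12 to 16 weeks, in which the Csf1r promoter drives EGFP, and were sorted as EGFP-positive and Ly6G-negative. The baseline group was 1 library from 3 pooled hearts of mice with no surgery. The infarct group was 3 libraries, each from 1 heart taken 7 days after left coronary artery ligation. The remote zone of the infarcted hearts had been removed before digestion. Surgery, infarction and the part of the heart taken cannot be told apart in these groups. With 1 baseline library, infarct and baseline were compared without a test.

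LYVE1, STAB1, MRC1, FOLR2 and CD163 are endocytic receptors that mark macrophages seeded in tissues before birth and kept there by self-renewal, many of them beside vessels. Class A scavenger receptors, MARCO and MSR1 among them, take up modified lipoproteins, microbes and debris. After coronary occlusion, resident macrophages in the ischemic region die and monocyte-derived macrophages replace them.

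Baseline held 6672 C1q-positive cells, 65.2% of its kept cells, and the infarct libraries held 7842, 9020 and 8413, or 75.4%, 83.7% and 83.2%. The median UMI count of a C1q-positive cell was 6621 at baseline and 8556 to 8687 in the infarct libraries. Shares of cells were therefore taken after each cell had been thinned to 2000 UMIs, which left out 484 to 769 shallower C1q-positive cells per library. The other cells held monocyte, dendritic, granulocyte, B cell or endothelial markers or none of these, so the macrophage label fitted most but not all cells. Fibroblast and erythroid markers were also present in these other cells, unevenly by library. Fibroblast markers summed to 47.4 CPM at baseline and to 1238, 217 and 255 CPM in infarct replicates 1, 2 and 3. Erythroid markers summed to 273 CPM and to 0.399, 0.273 and 1143 CPM. Markers of macrophages (7 genes, C1q included) summed to 11310 CPM over all baseline cells and to 12861 to 16812 CPM in the infarct libraries. Pairs of libraries shared 26 to 34 cell barcodes of over 10000 each. Levels are given as CPM, the UMIs of a gene in the cells named scaled to a common total of non-mitochondrial UMIs (counts-per-million).

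Promoter windows are shown for members whose level fell or rose most in C1q-positive cells, so that the genes moving together can be compared at their start sites. RefSeq windows for mouse build GRCm38.p6, each running from 250 bases before to 50 bases after a start site, were matched for 8 of the 10 genes in 10 windows. Lyve1 and Msr1 were not matched. Capitals mark an ETS-family core (GGAAGT), a MAF recognition core (TGCTGA) or an AP-1 site (TGANTCA) on either strand. These letters stood in 23.8%, 19.5% and 7.81% of all 32851 windows of this length. A match is a description of the letters and not of binding. The windows were chr6:124304401-124304700 on the plus strand for Cd163, chr7:101857141-101857440 on the minus strand for Folr2, chr13:37049164-37049463 on the minus strand for F13a1, chr3:87357631-87357930 on the plus strand for Cd5l and chr1:120504975-120505274 on the minus strand for Marco.
Cd163: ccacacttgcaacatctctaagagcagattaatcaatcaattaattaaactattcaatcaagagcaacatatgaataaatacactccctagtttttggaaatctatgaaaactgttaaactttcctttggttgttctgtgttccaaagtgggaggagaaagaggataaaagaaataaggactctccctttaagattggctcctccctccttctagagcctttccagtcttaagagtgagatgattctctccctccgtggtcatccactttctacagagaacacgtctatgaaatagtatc
Folr2: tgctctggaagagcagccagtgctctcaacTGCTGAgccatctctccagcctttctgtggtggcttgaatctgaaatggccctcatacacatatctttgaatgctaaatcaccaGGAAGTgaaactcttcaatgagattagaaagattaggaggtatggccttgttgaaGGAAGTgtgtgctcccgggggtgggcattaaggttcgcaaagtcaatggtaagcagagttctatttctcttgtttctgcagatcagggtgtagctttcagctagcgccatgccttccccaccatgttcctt
F13a1: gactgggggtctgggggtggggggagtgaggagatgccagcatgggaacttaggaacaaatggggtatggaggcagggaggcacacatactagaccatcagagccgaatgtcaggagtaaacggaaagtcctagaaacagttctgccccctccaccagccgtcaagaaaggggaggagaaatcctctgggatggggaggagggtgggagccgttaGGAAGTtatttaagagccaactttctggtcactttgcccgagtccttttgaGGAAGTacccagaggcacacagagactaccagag
Cd5l: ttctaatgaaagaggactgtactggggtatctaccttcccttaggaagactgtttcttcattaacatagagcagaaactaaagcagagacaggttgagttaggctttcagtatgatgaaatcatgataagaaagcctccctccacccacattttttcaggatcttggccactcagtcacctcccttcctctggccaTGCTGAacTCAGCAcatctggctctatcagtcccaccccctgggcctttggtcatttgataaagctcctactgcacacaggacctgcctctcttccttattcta
Marco: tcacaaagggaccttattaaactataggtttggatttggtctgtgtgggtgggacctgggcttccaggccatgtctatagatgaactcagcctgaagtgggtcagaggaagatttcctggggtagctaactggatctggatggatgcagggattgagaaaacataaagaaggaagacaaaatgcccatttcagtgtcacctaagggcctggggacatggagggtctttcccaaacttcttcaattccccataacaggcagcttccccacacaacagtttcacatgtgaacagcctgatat
The Folr2 window held 2 ETS-family cores and 1 MAF recognition core, and the F13a1 window held 2 ETS-family cores. Cd5l had 2 MAF recognition cores on opposite strands. The Cd163 and Marco windows held none of the 3 motifs. The table gives a further start site for F13a1, whose window held no match, and for Folr2, whose window held a MAF recognition core and an AP-1 site. No motif was shared by all members that were lower or by both that were higher.

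Within C1q-positive cells, 5 of the 10 genes were at least 2-fold lower in the infarct libraries than at baseline with every infarct library below it. These were Lyve1, Cd163, Mrc1, Folr2 and F13a1. By the same rule 8.21% of the 9295 genes whose mean reached 5 CPM were lower. Marco and Cd5l were at least 2-fold higher, as were 2.79% of those genes. Stab1, Msr1 and Fcna met neither rule. The median log2 ratio over all 9295 genes was -0.23, and TMM scaling, which corrects for a few abundant genes, brought it to 0.06. Summed markers of other cells also differed between the groups in C1q-positive cells. Endothelial markers gave 20.6 CPM at baseline and 9.64 ± 0.912 CPM after infarction, fibroblast markers 10.3 and 61.3 ± 12.2 CPM, and reparative macrophage markers 544 and 3146 ± 284 CPM. With cells holding endothelial UMIs left out, the log2 ratio of Lyve1 was -5.02 against -5.03 with them. Monocyte markers gave 636 and 726 ± 192 CPM, cardiomyocyte markers 63.0 and 38.2 ± 9.89 CPM, and spleen and liver macrophage markers 111 and 54.8 ± 1.12 CPM. Each endothelial, fibroblast, reparative, monocyte and cardiomyocyte marker had UMIs in every library. Apart from the endothelial list, the part of these markers in the results was not tested. The plot of CPM and of shares of cells by library shows the values of the members.

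**Figure D1:**
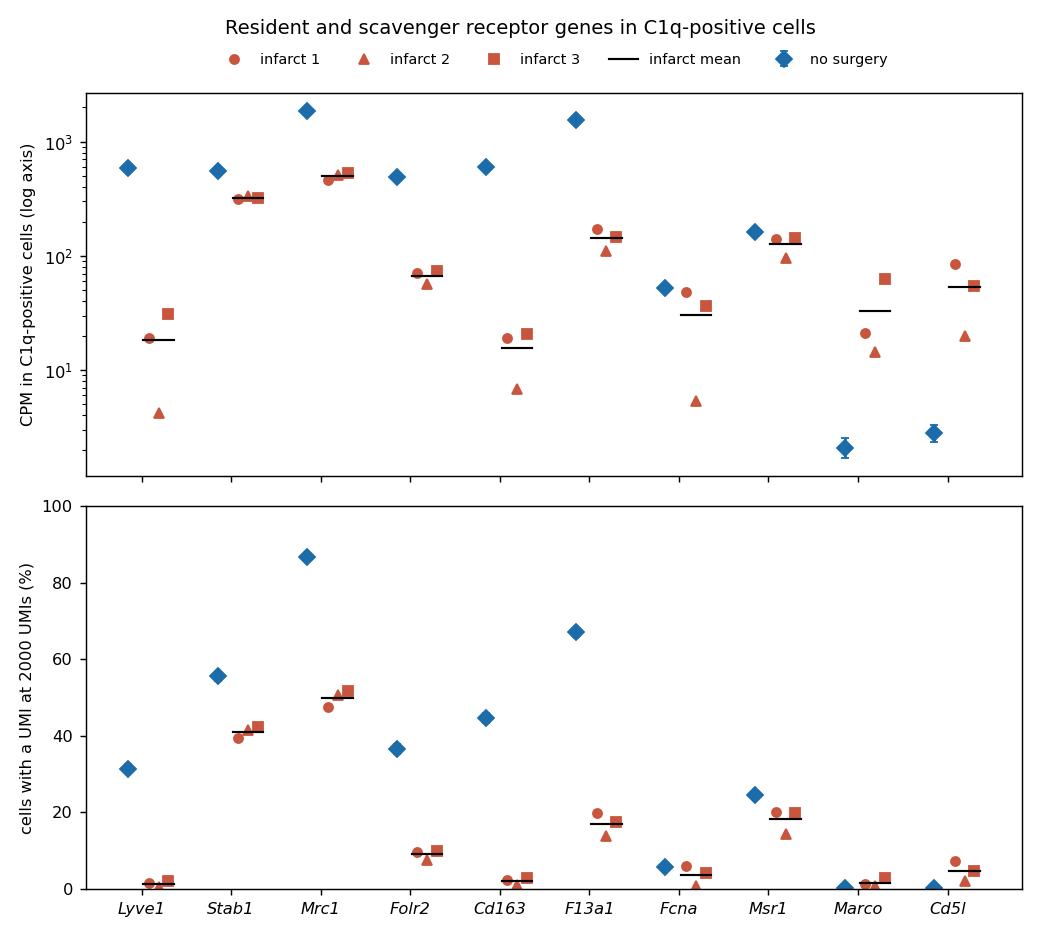
Level of each member in C1q-positive cells (top, CPM on a log axis) and the share of C1q-positive cells with at least 1 UMI after thinning to 2000 UMIs (bottom, percent). Diamonds are the baseline library with its exact 95% interval for counting error, other symbols are the 3 infarct libraries and lines are their means. Lyve1, Cd163, Folr2, Mrc1 and F13a1 lie far below the diamond in all infarct libraries, and Marco and Cd5l lie above it.

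Lyve1 encodes a hyaluronan receptor of resident macrophages and lymphatic endothelium. Its level in C1q-positive cells was 594 CPM at baseline and 19.2, 4.21 and 31.2 CPM in infarct replicates 1, 2 and 3. All infarct libraries lay below baseline, by 32.7-fold at their mean of 18.2 ± 13.5 CPM (SD, n = 3), and replicate 2 was lowest with a 7.42-fold span among them. The log2 ratio of -5.03 was -5.67 without replicate 3. A Lyve1 UMI was found in 31.4% of thinned C1q-positive cells at baseline (exact 95% interval 30.3 to 32.6) and in 1.36% ± 0.865 in the infarct libraries. Positive cells carried 3.12 UMIs each at baseline and 2.27 ± 0.320 in the infarct libraries. Among cells gated on B cell markers, which should lack the gene, 6 of 86 at baseline had a Lyve1 UMI and 0 of 63 in the infarct libraries, which allows a share of up to 4.76%. That limit is above the infarct share, so this gate is too small to set the background there, and of all infarct cells outside the C1q gate 0.165% ± 0.0554 had a Lyve1 UMI. Median UMIs of the B cell gate were 2962 at baseline and 2369 to 5217 in the infarct libraries. These intervals cover counting error only.

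Cd163 encodes the receptor for haptoglobin-haemoglobin complexes. It gave 602 CPM at baseline and 19.1, 6.90 and 20.9 CPM in the infarct libraries. The infarct mean of 15.6 ± 7.62 CPM was 38.5-fold lower, the lowest ratio of the 10 genes. The share of cells with a UMI was 44.7% at baseline and 2.41%, 0.927% and 2.77% in the infarct libraries. In the B cell gate it was 10.5% at baseline (9 of 86) and 0 of 63 in the infarct libraries.

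Folr2, the folate receptor beta, gave 496 CPM at baseline and 70.4, 57.3 and 74.3 CPM in the infarct libraries. The infarct values lay close together and were 7.36-fold below baseline at their mean of 67.4 ± 8.87 CPM. The share of positive cells was 36.5% at baseline and 9.09% ± 1.32 after infarction, against 5.81% and 1.59% in the B cell gate. Mrc1, the mannose receptor, fell less with little spread between the 3 hearts, from 1863 CPM at baseline to 462, 515 and 531 CPM. Its infarct mean of 503 ± 36.2 CPM was 3.70-fold lower, the share of positive cells went from 86.8% to 49.98% ± 2.25, and the UMIs per positive cell from 4.24 to 2.10 ± 0.0537. The B cell gate had Mrc1 in 17.4% of cells at baseline and 17.5% in the infarct libraries.

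Stab1 encodes stabilin-1, a clearance receptor for modified lipoproteins and for the matrix protein SPARC. Its values were 556 CPM at baseline and 313, 334 and 323 CPM in the infarct libraries. They lay below baseline by 1.72-fold, short of the 2-fold rule, and differed among themselves by 1.06-fold. A Stab1 UMI was found in 55.5% of C1q-positive cells at baseline and in 41.1% ± 1.54 after infarction, against 6.98% and 6.35% in the B cell gate. More than 39% of C1q-positive cells held Stab1 in every infarct library, where under 3% held Cd163.

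Of the class A scavenger receptors, Marco was higher after infarction and Msr1 met neither rule. Marco was near the floor at baseline, with 2.07 CPM (exact 95% interval 1.68 to 2.53, 96 UMIs), and reached 21.0, 14.5 and 63.2 CPM in the infarct libraries. All infarct values were higher, 15.9-fold at the mean of 32.9 ± 26.5 CPM, and replicate 3 was highest. Without replicate 3 the log2 ratio of Marco was 3.096 in place of 3.99. The share of positive cells remained small, 0.326% at baseline and 1.37%, 0.751% and 2.89% after infarction, but the UMIs per positive cell were 4.50 ± 0.315 against 1.30 at baseline. No cell of the B cell gate had a Marco UMI, which allows shares of up to 3.49% at baseline and 4.76% after infarction, and of the infarct cells outside the C1q gate 1.33% ± 1.15 had one. Msr1, the macrophage scavenger receptor 1, gave 161 CPM at baseline and 141, 96.7 and 145 CPM in the infarct libraries. Its mean of 128 ± 26.8 CPM was 1.26-fold lower, less than the 1.498-fold span among infarct libraries.

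Among the secreted proteins, F13a1 encodes the A subunit of coagulation factor XIII, which cross-links fibrin. Its level was 1543 CPM at baseline and 171, 110 and 148 CPM in the infarct libraries. The infarct mean of 143 ± 30.8 CPM was 10.8-fold lower, and no infarct library came near baseline. A UMI was found in 67.0% of C1q-positive cells at baseline and 17.0% ± 3.04 after infarction, against 10.5% and 7.94% in the B cell gate.

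Cd5l, a secreted scavenger receptor cysteine-rich protein that supports macrophage survival, gave 2.81 CPM at baseline (130 UMIs) and 85.5, 20.0 and 54.1 CPM in the infarct libraries. All infarct values were higher, 18.9-fold at the mean of 53.2 ± 32.8 CPM. The log2 ratio of 4.24 became 5.604 after thinning to 2000 UMIs and 5.74 as the mean of each cell's CPM, so the size of this rise from a baseline of few UMIs depended on the scaling. A Cd5l UMI was found in 0.163% of C1q-positive cells at baseline and in 4.69% ± 2.52 after infarction, while the B cell gate had it in 0 of 86 and 2 of 63 cells. Fcna, ficolin A of the lectin pathway of complement, gave 52.5 CPM at baseline and 48.5, 5.34 and 36.8 CPM in the infarct libraries. Its infarct values spanned 9.07-fold, with replicate 2 far below the others, so the 1.74-fold lower mean was within the spread between hearts. Without replicate 1 Fcna met the 2-fold rule as lower (log2 ratio -1.32). Replicate 2 was also the lowest infarct library for Lyve1, Cd163, Folr2, Marco, Msr1, Cd5l and F13a1, and the highest for Stab1.

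Summed over all kept cells, the same rule named 5 members as lower (7.19% of 9307 genes) and 2 as higher (2.27%). They were the genes named in C1q-positive cells. A lower sum may come from fewer positive cells or from less RNA in each. The log2 ratios ran from -5.00 for Cd163 and -4.75 for Lyve1 to 4.21 for Marco and 4.50 for Cd5l. Msr1 had a log2 ratio of -0.12, which became 0.16 with TMM scaling, so no direction is given for it. In the cells outside the C1q gate, Lyve1 went from 19.0 to 1.42 ± 1.36 CPM and Cd163 from 48.9 to 3.28 ± 1.83 CPM. Stab1 and Msr1 were slightly higher there after infarction, 79.9 ± 3.97 against 58.0 CPM and 148 ± 17.1 against 102 CPM.

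To ask which members belong to C1q-positive cells in the infarct itself, their summed counts were compared with those of the other cells of the same heart. Of the 10 genes, 7 were higher in C1q-positive cells (13% of 13529 genes tested were) and F13a1 was lower (13.7% were). Lyve1 gave 18.2 ± 13.5 against 1.42 ± 1.36 CPM, a log2 fold change of 3.59 ± 0.385 (SE, adjusted p = 0.00129, edgeR quasi-likelihood test with the heart as a block, higher in 3 of 3). Folr2 followed with 2.49 ± 0.0717 (edgeR adjusted p = 4.68e-05), then Cd163 with 2.36, Stab1 with 2.09, Fcna and Mrc1 with 1.95 each and Cd5l with 1.43 on the log2 scale. These calls were sensitive to the gate. With C1q-positive set at 60 UMIs per 10000, only Folr2, Mrc1 and Stab1 passed, and Marco and Cd5l changed sign. Marco had a log2 fold change of 0.45 (edgeR adjusted p = 0.178) and Msr1 of -0.15 (0.496), and neither passed. With the gate at 15 UMIs per 10000, Marco passed as higher (1.87, adjusted p = 0.00168), so its direction depended on the gate. Cd5l did not pass without replicate 2 (adjusted p = 0.0149).

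F13a1 was the exception among these genes. In the infarct libraries it gave 171, 110 and 148 CPM in C1q-positive cells and 292, 190 and 189 CPM in the others. It was lower in C1q-positive cells in 3 of 3 hearts, with a log2 fold change of -0.56 ± 0.0956 (edgeR adjusted p = 0.00598). The call did not pass without replicate 1 (adjusted p = 0.0259) or without replicate 2 (0.0284). At baseline the order was the opposite, with 1543 CPM in C1q-positive cells and 485 CPM in the others, and this difference between the groups was not tested. Cells outside the C1q gate that carried monocyte markers held 417 ± 68.8 CPM of F13a1 in the infarct libraries (614 to 1283 cells each) and 655 CPM at baseline. Circulating monocytes are known to express F13a1.

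The heat map by gate sets these values beside other markers. Of the remaining members, Msr1 was also found in the monocyte gate, with 196 ± 25.6 CPM after infarction, whereas Lyve1 there was 0.486 ± 0.384 CPM. Within C1q-positive infarct cells, those rich in Gpnmb, Spp1 and other markers of reparative macrophages had 4.64 ± 2.47 CPM of Lyve1 and 5.82 ± 3.55 CPM of Cd163. C1q-positive infarct cells outside the reparative, cycling, interferon response and monocyte gates had 29.7 ± 22.2 and 24.0 ± 10.7 CPM. The reverse order held for Stab1, with 381 ± 12.0 CPM in the reparative gate and 311 ± 2.55 CPM outside the gates. C1q-positive infarct cells with interferon response markers had less Lyve1 than those of the reparative gate, 0.648 ± 0.380 CPM. The gates were set after the data had been seen, and no test was made between them.

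**Figure D2:**
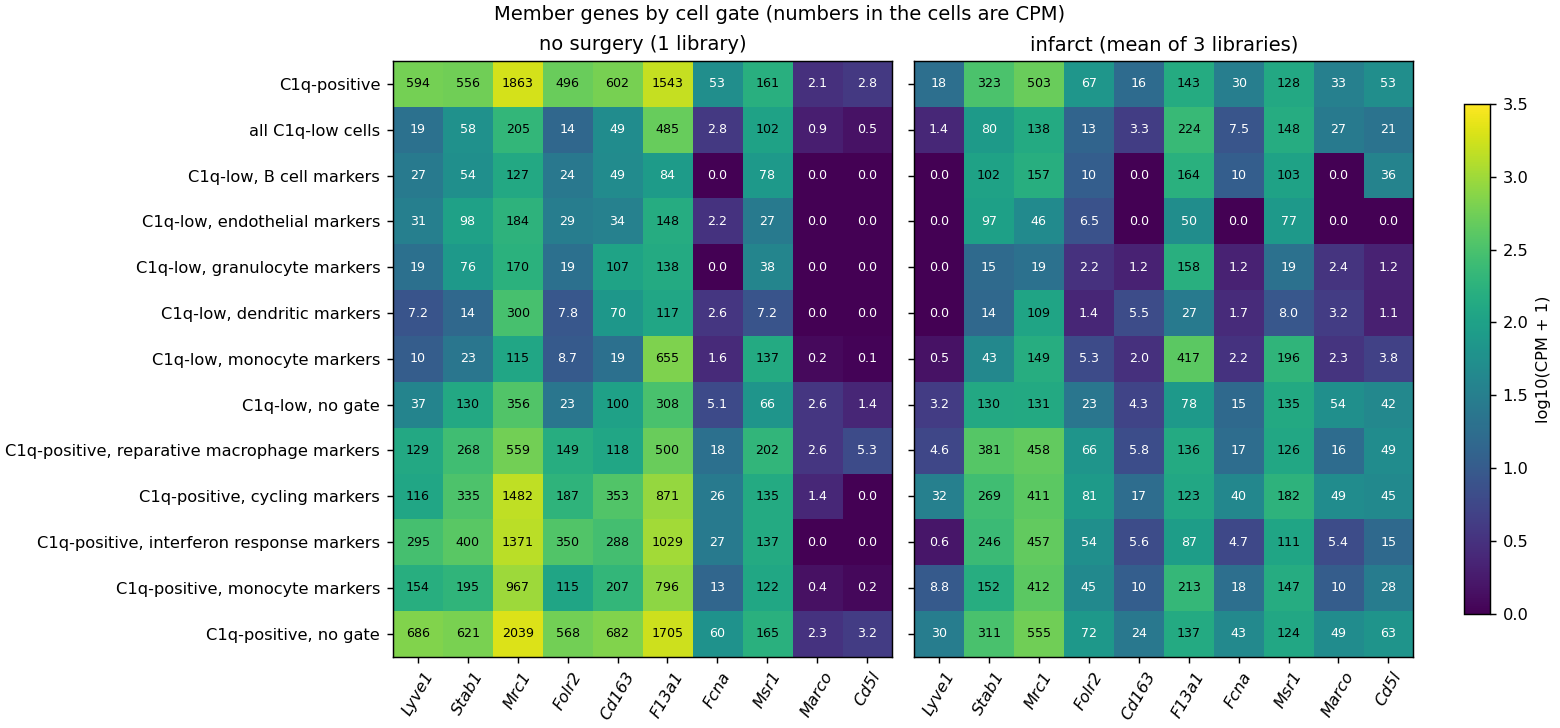
Mean level of each member by cell gate, as CPM written in each field and coloured by log10(CPM + 1), in the baseline library (left) and as the mean of 3 infarct libraries (right). C1q-low gates exclude each other, and gates within C1q-positive cells may overlap. F13a1 stays high in the C1q-low monocyte gate in both panels, and Lyve1, Cd163 and Folr2 are highest in C1q-positive cells outside the gates at baseline.

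More members were detected per C1q-positive cell at baseline than in the infarct libraries. A C1q-positive cell thinned to 2000 UMIs had a UMI of a median of 3 of the 10 genes, and 65.8% of cells had at least 3. In each infarct library the median was 1, and 19.4%, 13.7% and 19.9% of cells had at least 3. Lyve1, Cd163 and Folr2 were detected together in 1030 baseline cells, 16.8% of those thinned. In the infarct libraries 20, 12 and 33 cells had all 3, or 0.272%, 0.141% and 0.432%. These counts depend on the share of cells with each single gene. Whether the genes went together more or less than those shares give was not tested. The curve of members per cell shows the infarct libraries peaking at 1 gene while baseline is spread from 1 to 6.

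**Figure D3:**
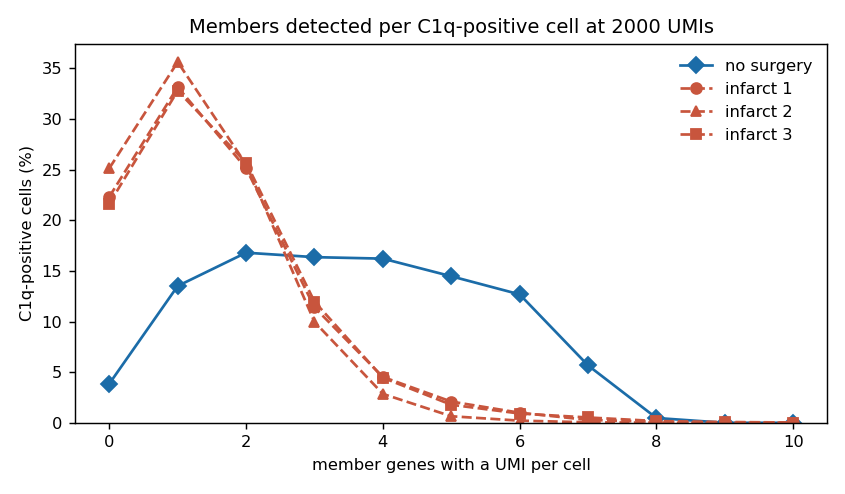
Share of C1q-positive cells (percent) by the number of the 10 member genes with at least 1 UMI after thinning to 2000 UMIs, for baseline (solid) and the 3 infarct libraries (dashed). The infarct curves peak at 1 gene and lie close together, and the baseline curve is broad with a median of 3.

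Baseline cells with a Lyve1 UMI also had F13a1 in 94.5%, Folr2 in 74.8% and Cd163 in 67.0% of cells, against 54.4%, 19.0% and 34.5% of cells without one. Marco and Cd5l were rare in this group, with 0.155% and 0.207%, against 0.403% and 0.142% of cells without a Lyve1 UMI. After infarction the few Lyve1 cells had F13a1 in 67.6% ± 10.2, Folr2 in 60.4% ± 8.98, Fcna in 43.9% ± 22.8, Cd163 in 33.8% ± 6.39, Cd5l in 29.5% ± 15.4 and Marco in 14.3% ± 6.89. Without a Lyve1 UMI these shares were 16.4%, 8.44%, 2.95%, 1.64%, 4.27% and 1.47%. The heat map of genes detected together shows this as a full block of resident receptors at baseline and as rows for Lyve1, Cd163 and Fcna after infarction that now extend to Marco and Cd5l.

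**Figure D4:**
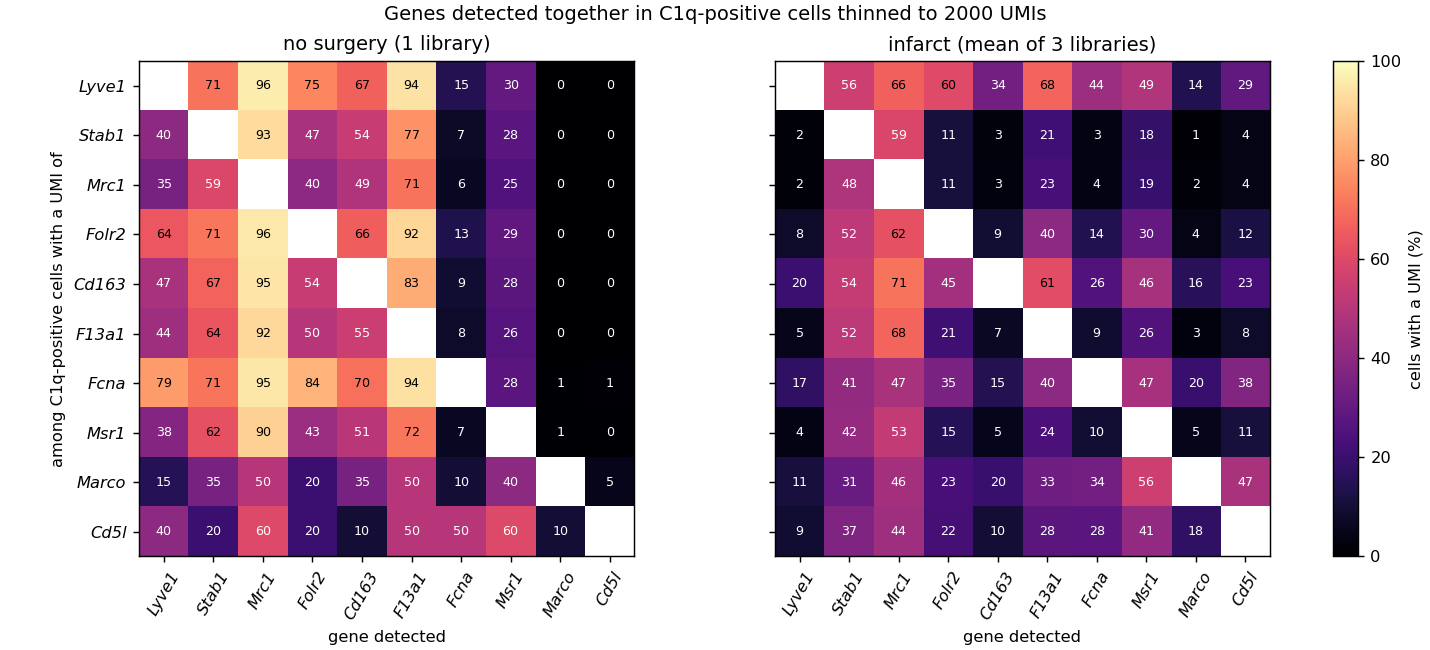
Among C1q-positive cells with a UMI of the row gene, the percent that also have a UMI of the column gene, after thinning to 2000 UMIs, at baseline (left) and as the mean of 3 infarct libraries (right). Outside the Marco and Cd5l rows, the Marco and Cd5l columns are near 0 at baseline. They reach 14% and 29% in Lyve1 cells after infarction. The Marco and Cd5l rows at baseline rest on 20 and 10 cells.

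To ask what the remaining Lyve1 cells of the infarct express, C1q-positive cells with a Lyve1 UMI (117, 34 and 159 cells in the 3 hearts) were compared with those without one in the same heart. Of the other 9 members, 7 were higher and none lower, against 3.41% and 3.93% of 10744 genes tested. Cd163 gave 329, 549 and 377 CPM with and 17.2, 6.36 and 18.3 CPM without a Lyve1 UMI, a log2 fold change of 4.48 ± 0.190 (edgeR adjusted p = 1.01e-117). Fcna followed with 4.29, Marco with 3.24, Folr2 with 3.12, Cd5l with 3.00, F13a1 with 2.71 and Msr1 with 1.63, each higher in 3 of 3 hearts. The lowest of the 7 calls by size, Msr1, had an edgeR adjusted p of 1.80e-15. Mrc1 (0.51, adjusted p = 0.0588) and Stab1 (0.36, 0.241) did not pass, but Mrc1 passed as higher after thinning to 4000 UMIs (0.64, adjusted p = 3.34e-05). For this division the fit used 1 spread for all genes, as did the fit for Marco below. The coefficients of variation were 12.4% and 11.3%, left after differences in level between hearts had been taken out by the block. The p-values of both fits rest on such a shared estimate and not on 3 hearts gene by gene.

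In Lyve1 cells, Marco and Cd5l had far higher levels in the infarct hearts than at baseline. Marco gave 244, 235 and 702 CPM in Lyve1 cells of the infarct hearts and 26.8, 16.5 and 59.2 CPM in the others. At baseline it gave 1.65 CPM in 1931 Lyve1 cells and 2.50 CPM without. Cd5l gave 726, 173 and 512 CPM against 90.5, 19.6 and 45.3 CPM in the infarct hearts, and 1.38 against 1.12 CPM at baseline. The baseline values rest on 5 to 20 UMIs each, too few to tell whether these genes go with Lyve1 there. The difference between baseline and infarct was not tested.

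By a rule of size, the 5 further genes highest with Lyve1 in the infarct were Fgfr1, a fibroblast growth factor receptor, Gm16104, Ednrb, the endothelin receptor B, Slc9a3r2, a scaffold protein, and Cbr2, a carbonyl reductase of resident macrophages. Fgfr1 gave 113, 126 and 128 CPM with and 6.26, 1.41 and 6.15 CPM without a Lyve1 UMI, and was also higher with Lyve1 at baseline, 116 against 17.2 CPM. Gm16104 is annotated as antisense, and its reads may not be separable from those of its overlapping gene. In Lyve1 cells of infarct replicate 2, Gm16104 rested on 3 UMIs and Slc9a3r2 on 1 UMI.

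The small Marco population was compared in the same way, with 101, 64 and 221 cells in the infarct hearts. Again 7 of the 9 other members were higher (5.21% of 10796 genes were), but Mrc1 and Stab1 were lower (5.20% were). Cd5l gave 947, 673 and 876 CPM with and 88.7, 15.3 and 30.7 CPM without a Marco UMI. Its log2 fold change was 4.29 ± 0.142 (edgeR adjusted p = 1.22e-192). Cd163 had 3.68, Fcna 3.53, Lyve1 3.08, Msr1 2.18, Folr2 1.197 and F13a1 1.01, all higher in 3 of 3 hearts. Mrc1 gave 404, 377 and 492 CPM with and 511, 550 and 583 CPM without, a log2 fold change of -0.54 (edgeR adjusted p = 0.000638), and Stab1 of -0.61 (0.000564). These 2 lower calls were lost in 7 and 6 of 16 other settings, among them the replacement of edgeR by DESeq2 (adjusted p = 0.0243 and 0.0586).

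At baseline, only 20 thinned C1q-positive cells had a Marco UMI. Lyve1 was 266 CPM in them and 519 CPM in the others, Cd163 319 and 616 CPM, Folr2 160 and 453 CPM and F13a1 666 and 1422 CPM. In all 4 genes the direction at baseline was opposite to that in the 3 infarct hearts, on 6 to 25 UMIs in the Marco cells. The 4 genes were named for this contrast, and the difference was not tested. The plot of log2 ratios for the 3 divisions of cells shows baseline and infarct side by side.

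**Figure D5:**
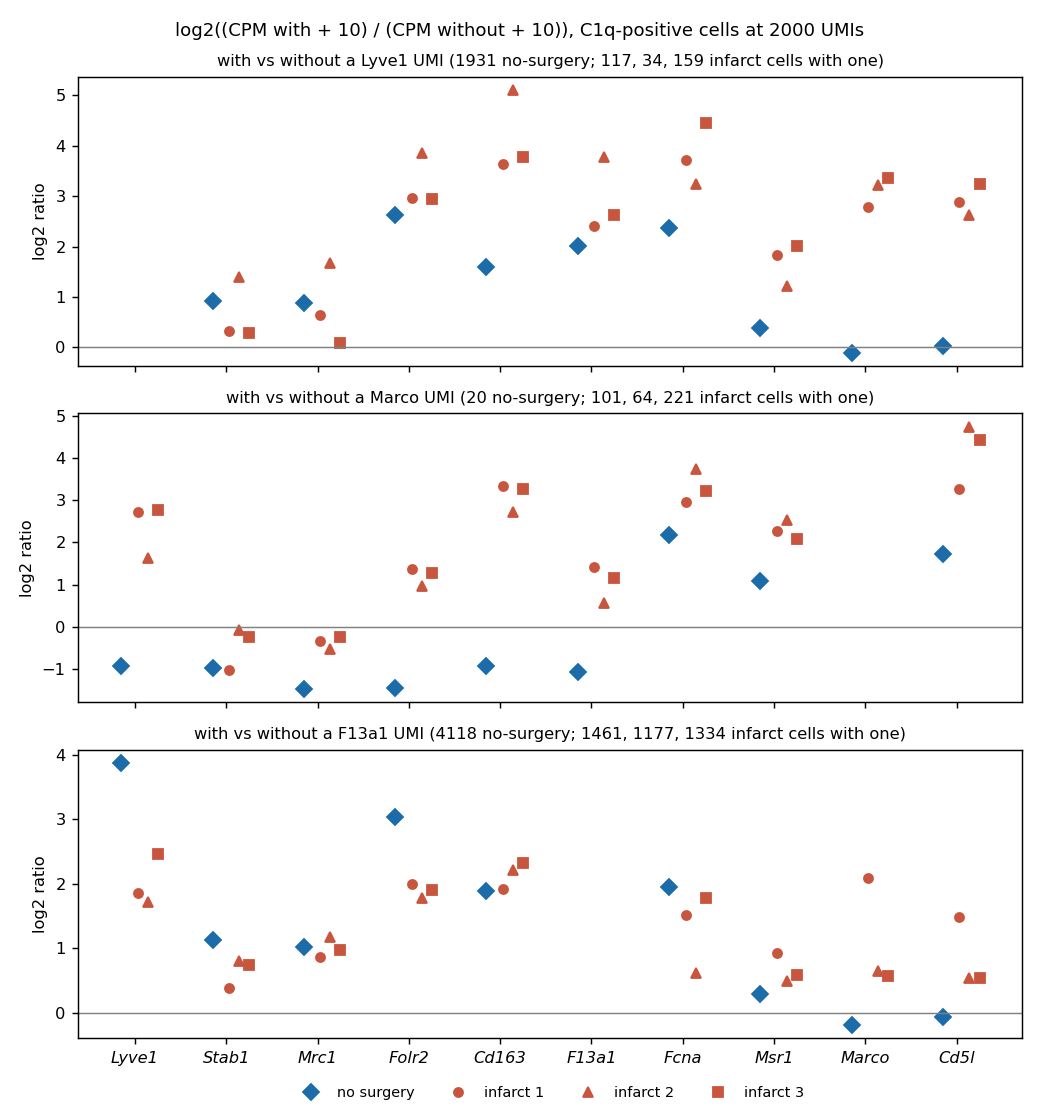
Difference of each member between C1q-positive cells with and without a UMI of Lyve1 (top), Marco (middle) or F13a1 (bottom), as log2 of the ratio of CPM after adding 10 CPM to both, in cells thinned to 2000 UMIs. Diamonds are baseline and other symbols the 3 infarct libraries. In the top panel Marco and Cd5l are about 3 in the infarct. Their baseline points are held near 0, since the added 10 CPM exceeds their levels there. In the middle panel Lyve1, Cd163, Folr2 and F13a1 are below 0 at baseline and above 0 in the infarct.

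The 5 further genes highest with Marco in the infarct were Serpinb2, an inhibitor of plasminogen activators, the acute-phase protein Saa3, Prg4 (lubricin), the protease inhibitor Slpi and the lipid carrier Fabp7. Saa3 gave 19671, 6803 and 9098 CPM with and 1515, 25.2 and 338 CPM without a Marco UMI. In the Marco cells at baseline, Serpinb2 and Fabp7 had 1 UMI each. Prg4 belongs to a list of 7 markers of serous cavity macrophages (Gata6, Prg4, Icam2, F5, Garnl3, Alox15, Lrg1). The summed list gave 626, 410 and 789 CPM in Marco cells of the infarct hearts, with 0 or 1 of the 7 genes at 0, and 84.6, 9.76 and 40.9 CPM in the others. At baseline it gave 1411 CPM in Marco cells and 27.8 CPM in the others. That baseline value rests on 53 UMIs in 20 Marco cells of 1 library. With serous cavity marker cells left out as described below, 16 of these cells remained, so a few cells held most of the 53 UMIs. In Lyve1 cells of the infarct the list gave 203, 15.7 and 223 CPM (1, 6 and 1 of the 7 genes at 0), against 90.2, 12.7 and 59.0 CPM without Lyve1.

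Over all C1q-positive cells the list was 56.1 CPM at baseline and 86.8, 14.8 and 69.7 CPM in the infarct libraries, lowest in replicate 2 as for 8 of the members. Cells with at least 2 UMIs of the list were then left out. In infarct replicates 1, 2 and 3 this took Lyve1 cells from 117, 34 and 159 to 76, 30 and 91. Marco cells went from 101, 64 and 221 to 60, 39 and 110. C1q-positive cells without a Lyve1 UMI went from 7241, 8489 and 7485 to 6643, 8385 and 7074. With those cells left out, 7 of 9 members were again higher with Lyve1 and 7 of 9 with Marco. Of 10574 genes tested in each, 252 were higher with Lyve1 and 206 with Marco. In Lyve1 cells the log2 fold changes were then 5.23 for Cd163 and 4.47 for Marco. Mrc1 and Stab1 were then no longer lower with Marco (adjusted p = 0.444 and 0.576). Infarct over baseline, the log2 ratio of Marco in C1q-positive cells was 3.05 and that of Cd5l 6.27 without these cells, against 3.99 and 4.24 with them, and Fcna then met the 2-fold rule as lower (log2 ratio -1.76 against -0.80).

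F13a1 divided many more cells, 1461, 1177 and 1334 in the infarct hearts. All 9 other members were higher with an F13a1 UMI (3.72% of 10884 genes were higher and 3.52% lower). Lyve1 gave 60.7, 24.8 and 105 CPM with and 9.45, 0.636 and 10.9 CPM without, a log2 fold change of 3.14 ± 0.189 (edgeR adjusted p = 9.11e-11). Cd163 had 3.09, Folr2 2.05, Fcna 1.84, Marco 1.29, Cd5l 1.06, Mrc1 0.94, Msr1 0.65 and Stab1 0.59. F13a1 thus went with the resident receptors within C1q-positive cells, although its level was higher outside them. Without the heart as a block only Folr2 passed. With the DESeq2 Wald test Marco and Cd5l did not pass (adjusted p = 0.293 and 0.0677), and Cd5l did not pass at 4000 UMIs (0.0142, edgeR). The 5 further genes highest with F13a1 were Cbr2, Retnla, Ccl24, Ednrb and Ltc4s, of which Retnla had the largest SD relative to its mean, with 127, 11.5 and 26.4 CPM with F13a1.

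Further genes of the same pathways were taken from lists that were chosen with earlier results of these data known. Of 20 other resident macrophage genes, 18 passed the level filter in C1q-positive cells, and 14 were at least 2-fold lower after infarction and none higher, with a median log2 ratio of -1.81 against -0.23 over all genes. Timd4, a phosphatidylserine receptor of self-renewing macrophages, went from 77.3 to 1.56 ± 1.32 CPM, and Mgl2, a galactose-binding lectin, from 835 to 32.2 ± 6.36 CPM. Siglec1 (log2 ratio -0.92), Selenop, Ltc4s and Ninj1 did not reach 2-fold. Of 9 other scavenger receptors past the filter, Vsig4, Cd36 and Colec12 were lower and Cxcl16, which binds oxidised lipoprotein, was higher. By the same rule 8.21% of 9295 genes were lower and 2.79% higher. Vsig4, a complement receptor counted in both lists, went from 67.4 to 4.28 ± 2.86 CPM. Cd36 went from 395 to 66.0 ± 22.8 CPM and Cxcl16 from 313 to 725 ± 89.2 CPM.

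The ligands of CD163 and LYVE1 are haemoglobin complexes and hyaluronan. Of 9 genes of haem and iron handling, none was 2-fold lower and 1, the ferritin heavy chain Fth1, was higher, from 6946 to 16568 ± 756 CPM. The haem oxygenase Hmox1 gave 183 CPM at baseline and 309, 194 and 181 CPM in the infarct libraries, which overlapped baseline. Of 4 genes of hyaluronan handling, including the receptor Cd44, none reached 2-fold in either direction. By this rule 8.21% of 9295 genes were lower and 2.79% higher. Within the infarct, 11 of 17 other resident macrophage genes were higher with Lyve1 and 1 lower, and 7 and 3 with Marco. Of 12 other scavenger receptors, 3 were higher and 3 lower with Lyve1, and 4 and 3 with Marco. Over all genes tested, 3.41% were higher and 3.93% lower with Lyve1, and 5.21% and 5.20% with Marco. Vsig4 and Timd4 were higher in Lyve1 cells (log2 fold changes of 5.12 and 4.89, edgeR adjusted p = 6.23e-43 and 3.02e-13) and in Marco cells (4.44 and 4.73). Of the 9 haem and iron genes, Fth1 and Ftl1 were lower in both divisions, and 0 and 2 were higher. Cd44 was also higher with Lyve1 (1.13) and with Marco (1.07).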

How the data were processed

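The authors used Cell Ranger (version 3.1.0 per the file headers, 3.0.1 per the submitters' processing notes) and mm10 to produce the deposited counts, which are unnormalised UMIs of each gene in each cell. A cell was kept at 500 to 40000 UMIs when more than 200 genes were detected in it. The members, the gene lists, the gates and the tests were chosen with earlier results of these data known. Total UMIs were 71093963 at baseline and 88157753 to 97944428 in the infarct libraries. Cells are not replicates. Summed counts of a library entered quasi-likelihood tests (edgeR 4.0.16 under R 4.3.3) that took the library as a block, after filterByExpr and TMM scaling. The threshold was 0.01 on p-values that were adjusted by Benjamini-Hochberg across every gene in the fit. The pairing comes from the heart, since both sums of a pair are cells of 1 heart. Cells were divided by Lyve1, Marco or F13a1 after thinning to 2000 UMIs, a random draw without replacement. The genes defining a division were not tested. Infarct and baseline CPM were compared without a test, and a gene was called when the mean differed at least 2-fold with all infarct libraries on 1 side of baseline. Intervals are exact 95% binomial intervals (scipy 1.17.1). In simulated sums with 200 changed genes, the Lyve1 test recovered 49% of 2-fold and 83% of 4-fold changes among 10708 genes, and the Marco test 55% and 92% among 10758. For C1q-positive against other cells (13433 genes) and for F13a1 (10861 genes) both shares were 100%. The changed genes were drawn from those above a minimum level, with the same spread set for all genes and comparisons. Heart effects were the same in both sums of a heart. The shares hold for those settings and not for every gene tested. Further named genes were the 5 with the highest log2 fold change among those past the threshold, with a mean of at least 50 CPM in cells with the UMI and higher in every library including baseline. Sex-linked, mitochondrial and ribosomal genes were not ranked. Pathway genes past the rule could be named, and a pathway gene given to show that it did not pass was chosen after its values were seen. Motifs were searched in RefSeq windows. Gates per 10000 UMIs were at least 10 for B cell, endothelial, dendritic and cycling marker sums, 20 for monocyte, reparative and interferon sums and 50 for granulocyte sums. Scrublet in scanpy 1.11.5 called 1.97% of baseline cells and at most 0.00988% of infarct cells as doublets. The setting without doublets therefore left out the top-scoring 8.10% to 8.63% of each library. Doublets were kept otherwise. Other settings tried were DESeq2 1.42.0, its size factors, the fit without a block, omission of single infarct libraries, genes of any count kept, other C1q thresholds (15 and 60), other thinning depths (1000 and 4000), a further draw, cells over 10% mitochondrial UMIs or with endothelial UMIs left out, no cell filter and mean CPM per cell. Leaving out cells with serous cavity marker UMIs was added after the data had been seen. Plots were drawn with matplotlib 3.10.9.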

Additional observations from a re-analysis of the deposited data

Results flagged for a closer look

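F13a1 went in opposite directions at baseline and after infarction when C1q-positive cells were compared with other cells. The baseline log2 ratio was 1.67, and all 3 infarct libraries had the lower level in C1q-positive cells. The difference between the groups was not tested.

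In C1q-positive cells with a Marco UMI, 4 members lay below the cells without one at baseline and above them in all 3 infarct libraries. The baseline log2 ratios were -0.96 for Lyve1, -0.95 for Cd163, -1.50 for Folr2 and -1.10 for F13a1. The rule that flagged these genes asked for opposite directions and for exact 95% intervals apart at baseline, so both were given by the choice. For Lyve1 the intervals were 128 to 490 CPM in Marco cells and 506 to 532 CPM in the others. They cover counting error only and not the spread between cells or hearts. The baseline values rest on 20 Marco cells of 1 library, and the difference between the groups was not tested.

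For Stab1 and Msr1, every infarct library lay under the baseline interval in C1q-positive cells and above it in the other cells. This was the rule that flagged them, and the intervals cover counting error only. Over the other settings the log2 ratio in C1q-positive cells ran from -0.81 to -0.49 for Stab1 and from -0.55 to -0.05 for Msr1. The 1.26-fold lower mean of Msr1 was less than the 1.498-fold span among infarct libraries, so no direction is given for it there. The log2 ratios of infarct to baseline in the other cells were 0.46 and 0.54. Whether these effects differ between the cell groups was not tested.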

How the results depend on the processing

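Infarct against baseline, 5 members were lower in the main setting and 5 to 7 in C1q-positive cells (5 to 6 in all cells) over 14 and 12 other settings, and 2 were higher in each. In C1q-positive against other cells, 7 members were higher. The gate at 60 UMIs per 10000 left 3 higher and 0 lower, with log2 fold changes of -1.73 for Marco and -0.39 for Cd5l, and the gate at 15 gave 8 higher, Marco among them. The cause was not tested. Without the replicate block, which does not use the pairing by heart, this comparison had 3 higher and 0 lower, F13a1 cells had 1 higher and Marco cells had 0 lower, and no other count of members moved by over 1.5 times. Leaving out 1 infarct library gave 0 to 1 lower members in C1q-positive cells, a log2 fold change of -0.34 to 0.12 for Msr1 and 1 to 2 lower members with Marco. Members lower with Marco were also 0 at the C1q gate of 60, with the DESeq2 Wald test, with serous cavity marker cells left out and at 1000 UMIs, and 1 in another draw of the thinning. The Lyve1 division could not be run at 1000 UMIs, since replicate 2 had 16 such cells against a minimum of 20. The 7 members higher with Lyve1 passed in all 15 other settings, and Mrc1 also passed at 4000 UMIs. With Marco, F13a1 did not pass at 1000 UMIs (adjusted p = 0.0417). With F13a1, 7 members were higher by the DESeq2 Wald test and 8 at 4000 UMIs. Retnla with F13a1 ranged from 0.86 to 3.57 and did not pass with the DESeq2 Wald test (adjusted p = 0.327) or without the block (0.249). Marco at baseline (96 UMIs in C1q-positive cells) and the 34 Lyve1 cells of replicate 2 set the depth limits.

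Counts over all genes moved by more than 1.5 times as follows. In C1q-positive against other cells, 1755 higher and 1860 lower became 978 to 1049 and 1014 to 1063 when 1 infarct library was left out. With Lyve1, 366 and 422 became 215 and 207 (DESeq2 Wald test), 242 and 293 (no replicate block), 776 and 864 (4000 UMIs), 133 and 126 (without replicate 1) and 133 and 158 (without replicate 3). With Marco, 563 and 561 became 234 and 235 (C1q gate of 60), 362 and 253 (DESeq2), 206 and 256 (serous cavity marker cells left out), 356 and 341 (no block), 238 and 355 (1000 UMIs) and 211 and 352 (without replicate 3). With F13a1, 405 and 383 became 149 and 154 (DESeq2), 3 and 3 (no block), 224 and 210 (1000 UMIs) and 303 and 231 (without replicate 3).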

Other observations

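Beyond the receptors, all 5 genes of the reparative macrophage list (Gpnmb, Spp1, Gdf15, Fabp5, Trem2) were lower in infarct cells with a Lyve1 UMI and in those with a Marco UMI, as were 3.93% and 5.20% of all genes tested. In Lyve1 cells the log2 fold changes ran from -0.92 for Spp1 (edgeR adjusted p = 0.000105) to -3.35 for Gdf15 (3.42e-13), although the CPM of Spp1 in replicate 2 was higher with Lyve1 (1428) than without (1168). In Marco cells they ran from -0.57 for Fabp5 (edgeR adjusted p = 0.000464) to -1.57 for Gdf15 (2.62e-08). The summed list gave 1533, 1993 and 1030 CPM in Lyve1 cells of infarct replicates 1, 2 and 3, and 2764, 2994 and 2582 CPM in the others. In Marco cells it gave 1682, 2166 and 1517 CPM, against 2760, 2996 and 2580 CPM. The summed monocyte list in Lyve1 cells was 622, 78.5 and 341 CPM, below the 951, 614 and 644 CPM of cells without Lyve1, and the value of replicate 2 rests on 5 UMIs with 4 of 6 genes at 0. Summed cycling markers (Mki67, Top2a, Birc5, Ccnb1, Cdk1) in Lyve1 cells were 76.7, 94.2 and 318 CPM, against 78.2, 84.3 and 111 CPM without Lyve1, so that replicate 3 alone stood apart. Summed endothelial markers were 13.5, 0 and 9.84 CPM in Lyve1 cells of the infarct and 8.92, 8.50 and 8.98 CPM in the others.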
